A study of Mus musculus with 4 samples.

Results

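The genes that mark mature cerebellar granule neurons were followed across 4 mouse cerebellar tumors, with 10 members: Gabra6, Cbln1, Cbln3, Chn2, Grin2c, Snap25, Syt1, Cadps2, Fat2 and Rbfox3. The members were set by name, as every probe set that the platform annotation gives one of these symbols alone, whatever its signal. They came to 20 probe sets for 10 genes, of 29243 probe sets and 13320 genes with a single-symbol probe set. The members were chosen with earlier results of these data known, so their shares beside those of all probe sets only describe this list. Each tumor carries the genotype Chd7-het on a mixed CD1xC57BL/6 background, and its total RNA was hybridised to 1 Affymetrix mouse array. The labels number the tumors 1, 2, 4 and 5, put them all in a single group and name no other allele, agent or time. Not given in the sources used here are the age of the mice and the origin of the tumors, and neither normal cerebellum nor tumors of another genotype were analysed here. With no second group, each tumor was compared with the other 3, and the p-values measure only the spread between these tumors.

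Granule neurons are the small excitatory neurons of the cerebellar cortex. Their progenitors divide in the external granule layer under the drive of Sonic hedgehog, leave the cell cycle, migrate inward past the Purkinje cells and mature in the internal granule layer, where they take up mossy fibre input and send parallel fibres to Purkinje cells. Maturing neurons switch on receptor subunits, synaptic organisers and release proteins in turn, so these genes read how far cells of the lineage have differentiated. Gabra6, Cbln3 and Fat2 are known in the cerebellum mainly from granule neurons, whereas Snap25, Syt1 and Rbfox3 are expressed by many kinds of neuron.

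All values below are log2 MAS5 signals, in which a step of 1 is a doubling, and signals of different probe sets were not compared with each other. The files hold no detection calls, so a floor of 5.12 on the log2 scale (34.8 linear), the median over arrays of the 40th percentile, stands in for background, and values under it are not well above background. By array, 59.1% to 61.3% of probe sets exceeded it, and the 3' over 5' signal of the RNA quality controls was highest in tumor 1 for both Gapdh (0.757, against 0.686 to 0.748) and b-actin (1.17, against 1.11 to 1.15). The part of this in the results was not tested. All 13 listed genes of granule progenitors and their Sonic hedgehog drive lay above the floor in every tumor. The precision is limited by the number of arrays. A probe set passed when limma's Benjamini-Hochberg adjusted p over all 29243 probe sets was under 0.05 and the difference was 2-fold or more. A fold against tumors under the floor is a lower bound, computed with those tumors raised to the floor, and is written "at least".

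Every one of the 20 probe sets read highest in tumor 1, where 26.7% of all probe sets did, so that all 20 were above the mean of the others, against 50.7% of all. The genes that passed there were Cadps2 (9.13-fold), Snap25 (3.56-fold, by 1 of its 2 probe sets) and Gabra6 (at least 4.53-fold, by 1 of its 2 probe sets). Cbln3, Chn2, Syt1 and Fat2 read well above their level in the other tumors without passing, and Cbln1 and Rbfox3 differed by less than 2-fold. By the probe set with the highest mean of each gene, 9 of the 10 genes lay above the floor in tumor 1, and 4, 8 and 5 in tumors 2, 4 and 5.

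**Figure D1:**
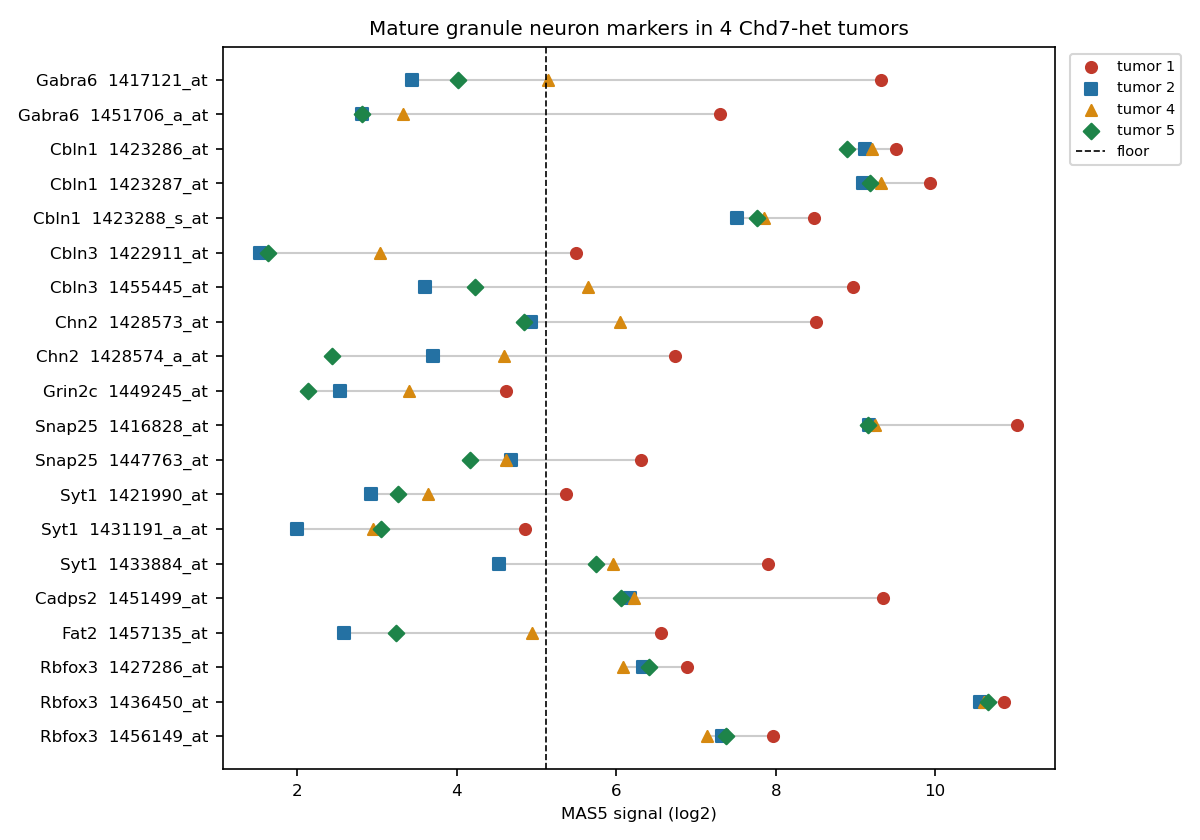
Log2 MAS5 signal (x axis) of the 20 probe sets of the 10 mature granule neuron markers (rows), 1 point per tumor, with the floor of 5.12 as a dashed line and a grey line over the range. Tumor 1 is the rightmost point in each of the 20 rows, and tumor 4 the next in 15.

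Receptor subunits come first. Gabra6 encodes the alpha6 subunit of the GABA-A receptor, which appears late in granule neurons and is a standard sign of their terminal maturation. Probe set 1417121_at read 9.33 in tumor 1, 3.43 in tumor 2, 5.14 in tumor 4 and 4.01 in tumor 5. Tumor 1 stood 4.18 above the next tumor, and tumors 2 and 5 lay under the floor. The gene was at least 18.4-fold higher in tumor 1 by this probe set, which missed the threshold (difference 5.13, SE 0.60, adjusted p = 0.0525). Its other probe set, 1451706_a_at, read 7.30 in tumor 1 and 2.81, 3.32 and 2.81 in tumors 2, 4 and 5. This one passed (difference 4.32, SE 0.40, adjusted p = 0.0406), with all 3 other tumors under the floor, so that the bound is at least 4.53-fold. Grin2c encodes the GluN2C subunit of the NMDA receptor, which replaces GluN2B as granule neurons mature. It read 4.61, 2.54, 3.41 and 2.14 in tumors 1, 2, 4 and 5, under the floor in every one, so its order is not a measured level (adjusted p = 0.339).

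The promoter of Gabra6 is shown because its probe set 1417121_at had the largest difference among the members, taken against tumors near or under the floor. It is taken from the RefSeq promoter table of build GRCm38.p6, at chr11:42321023-42321322 on the minus strand, and runs from 250 bases before to 50 bases after the transcript start. Capitals mark a motif that was searched.
Gabra6: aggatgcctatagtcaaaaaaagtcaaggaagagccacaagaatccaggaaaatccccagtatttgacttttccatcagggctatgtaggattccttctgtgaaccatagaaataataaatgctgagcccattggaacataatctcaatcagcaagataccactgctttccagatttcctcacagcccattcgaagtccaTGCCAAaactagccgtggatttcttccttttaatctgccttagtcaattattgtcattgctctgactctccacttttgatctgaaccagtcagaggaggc

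Cerebellins and adhesion molecules gave different sizes of difference. Cbln1 is the secreted organiser that granule neurons release from parallel fibres to bind neurexin on their own side and the delta2 glutamate receptor on Purkinje cells. Its 3 probe sets lay above the floor throughout: 1423287_at read 9.93, 9.09, 9.32 and 9.18 in tumors 1, 2, 4 and 5, 1423286_at read 9.51, 9.12, 9.21 and 8.89, and 1423288_s_at read 8.48, 7.51, 7.86 and 7.77. Tumor 1 was above the others in all 3 by 0.44 (SE 0.18), 0.73 (SE 0.17) and 0.77 (SE 0.19) for 1423286_at, 1423287_at and 1423288_s_at, each under 2-fold, and none passed (adjusted p = 0.526, 0.167 and 0.206). Cbln3 is a cerebellin of granule neurons that assembles with Cbln1 and needs it to leave the cell. Its brighter probe set, 1455445_at, read 8.97 in tumor 1, 3.60 in tumor 2, 5.65 in tumor 4 and 4.23 in tumor 5. Tumors 2 and 5 lay under the floor, and tumor 1 was at least 12.8-fold higher without passing (difference 4.48, SE 0.71, adjusted p = 0.0755). The other, 1422911_at, read 5.50, 1.54, 3.04 and 1.63, above the floor in tumor 1 alone (at least 1.30-fold, adjusted p = 0.138). Fat2, a giant protocadherin found on parallel fibres, read 6.56, 2.58, 4.94 and 3.23 in tumors 1, 2, 4 and 5. Tumor 1 alone lay above the floor, at least 2.71-fold higher (difference 2.97, SE 0.84, adjusted p = 0.271).

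The Cbln3 promoter, at chr14:55884207-55884506 on the minus strand of GRCm38.p6, is shown beside that of Gabra6. The reason is that both genes lay near or under the floor in tumors 2, 4 and 5 and above it in tumor 1. Fat2 did so too, and its promoter, not shown, held none of the motifs searched.
Cbln3: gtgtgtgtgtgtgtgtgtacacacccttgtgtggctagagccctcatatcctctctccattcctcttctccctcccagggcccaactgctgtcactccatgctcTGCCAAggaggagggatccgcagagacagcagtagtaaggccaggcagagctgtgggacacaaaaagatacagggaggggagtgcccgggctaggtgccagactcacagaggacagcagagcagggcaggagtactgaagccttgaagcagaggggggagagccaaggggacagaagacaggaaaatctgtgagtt

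Chn2 encodes beta-chimaerin, a Rac GTPase-activating protein of granule neurons. Probe set 1428573_at read 8.51 in tumor 1, 4.93 in tumor 2, 6.05 in tumor 4 and 4.85 in tumor 5. Tumor 4 was the only other tumor above the floor. The difference of tumor 1 was at least 8.45-fold, without passing (3.23, SE 0.47, adjusted p = 0.0702). The second probe set, 1428574_a_at, read 6.74, 3.70, 4.60 and 2.43, with the same tumor on top and all others under the floor (at least 3.07-fold, adjusted p = 0.194).

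Snap25, Syt1 and Cadps2 act in release. Cadps2 is a priming factor of dense-core vesicles that granule neurons use to release neurotrophins, and its single probe set, 1451499_at, read 9.34 in tumor 1 and 6.17, 6.23 and 6.06 in tumors 2, 4 and 5. The other 3 tumors lay within 0.17 of each other, and tumor 1 stood 3.12 above the highest of them. Cadps2 rose by 3.19 (SE 0.18, adjusted p = 0.0229), or 9.13-fold, and all 4 tumors lay above the floor. Snap25 encodes a SNARE protein of the presynaptic membrane. Probe set 1416828_at read 11.03 in tumor 1 and 9.17, 9.25 and 9.16 in tumors 2, 4 and 5, so the gene was well measured in every tumor. It rose 3.56-fold in tumor 1 (1.83, SE 0.15, adjusted p = 0.0318). The dimmer probe set of Snap25, 1447763_at, read 6.32, 4.68, 4.62 and 4.17, with a similar difference (1.83, SE 0.33, adjusted p = 0.0961) that was at least 2.29-fold. Syt1 encodes synaptotagmin 1, the calcium sensor of synaptic vesicle fusion. Its brightest probe set, 1433884_at, read 7.90 in tumor 1, 4.52 in tumor 2, 5.96 in tumor 4 and 5.75 in tumor 5. Tumor 2 alone lay under the floor, and tumor 1 was at least 4.90-fold higher without passing (difference 2.49, SE 0.54, adjusted p = 0.152). The remaining Syt1 probe sets read 5.38, 2.93, 3.64 and 3.26 (1421990_at) and 4.85, 2.00, 2.94 and 3.05 (1431191_a_at), the latter under the floor in all 4 tumors.

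The Cadps2 promoter, at chr6:23839372-23839671 on the minus strand of GRCm38.p6, is printed because this gene gave the smallest adjusted p of the members. It holds no capitals, since none of the letters searched was found in it, and its GC content was 79.7% against 42% for Gabra6, 57% for Cbln3 and a median of 52.7% over the whole table.
Cadps2: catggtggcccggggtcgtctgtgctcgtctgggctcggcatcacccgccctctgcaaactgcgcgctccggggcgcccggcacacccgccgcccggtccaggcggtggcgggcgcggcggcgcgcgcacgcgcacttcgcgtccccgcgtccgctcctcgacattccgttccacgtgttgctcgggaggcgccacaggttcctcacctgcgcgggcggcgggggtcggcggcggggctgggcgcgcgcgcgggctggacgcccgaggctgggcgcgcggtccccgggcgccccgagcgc

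The promoter table held 8 of the 10 genes, not Cbln1 and Snap25, with 12 promoters among 32851 of 300 bases each. The motifs searched on both strands were the E-boxes CAGCTG and CAGATG, the full palindromic nuclear factor I site, a MEF2-like site, the cyclic AMP response element TGACGTCA and the letters TCAGCACC of the RE1 element. A shorter nuclear factor I motif, TTGGCA, which can overlap the full site, was added later. CAGCTG was found in 3 of the 12 promoters (of Chn2 and Syt1) and in 16.3% of all promoters, and CAGATG in 2 (both of Chn2) and in 17.2%. TTGGCA stood in 4 promoters, those of Gabra6, Cbln3, Rbfox3 and 1 of Chn2, and in 14.1% of all promoters. It began 50 bases before the start of Gabra6 and 146 before that of Cbln3, on the opposite strand in both. The full nuclear factor I site, the MEF2-like site, TGACGTCA and TCAGCACC were in none of the 12, and in 0.0365%, 3.69%, 1.79% and 1.65% of all promoters. A match is a run of letters in the reference sequence and was not measured as a binding site.

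Rbfox3 is the splicing factor known as the neuronal antigen NeuN. Its brightest probe set, 1436450_at, read 10.86, 10.57, 10.61 and 10.66 in tumors 1, 2, 4 and 5, so all 4 tumors lay within 0.30 of each other, the smallest range among the 20 probe sets. Tumor 1 was above the others by 0.25 (SE 0.17, adjusted p = 0.790). Probe sets 1456149_at (7.96, 7.32, 7.13 and 7.38) and 1427286_at (6.89, 6.33, 6.09 and 6.41) also lay above the floor in every tumor. Their differences in tumor 1, 0.69 (SE 0.18, adjusted p = 0.229) and 0.61 (SE 0.22, adjusted p = 0.426), did not pass either.

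Over the whole list, chosen with earlier results of these data known, 3 of 20 probe sets passed as higher in tumor 1, against 0.127% of all probe sets. The median difference of tumor 1 over the members was 2.14 (range 0.25 to 5.13) and that over all probe sets 0.0057. By 2-fold or more, 14 of the 20 were higher, against 5.14% of all. The other 6 were the 3 of Cbln1 and the 3 of Rbfox3. With all values raised to the floor, 10 were higher by 2-fold or more, against 1.57% of all, 7 passed, against 0.51%, and the median was 0.98. For Gabra6 1451706_a_at, Chn2 1428574_a_at, Fat2 and Snap25 1447763_at, tumors 2, 4 and 5 were then all set to the floor, with no spread. Gabra6 1417121_at came close to this, with tumor 4 at 5.14. Passing was nearly fixed there once tumor 1 lay 2-fold over the floor, so the count of 7 is no added support. The SD over the 4 tumors reached or passed the 95th percentile of the probe sets nearest in mean signal for 15 of the 20, and stood at percentile 35.1 for Rbfox3 1436450_at. In bulk RNA, a different number of cells of a type and a different amount of RNA per cell cannot be told apart.

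These calls rest on few arrays. Without tumor 2, 4 or 5, none of the 20 probe sets passed in the limma test (19, 17 and 18 had an unadjusted p under 0.05), and none of all 29243 did either (4442, 1527 and 2308). With 1 probe set per gene, 5 of 10 genes passed, against 1.17% of all 13320 genes as higher, now with Gabra6 1417121_at, Cbln3 and Chn2 beside Cadps2 and Snap25, and without the intensity trend none did (17 with an unadjusted p under 0.05). A filter on the mean, with the floor, kept 10 of the 20 probe sets, of which 4 passed (0.698% of all kept probe sets passed as higher), but 8 by the mean of tumors 2, 4 and 5: Chn2 1428573_at and Syt1 1433884_at entered through tumor 1, so their passing there is no separate support.

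**Figure D2:**
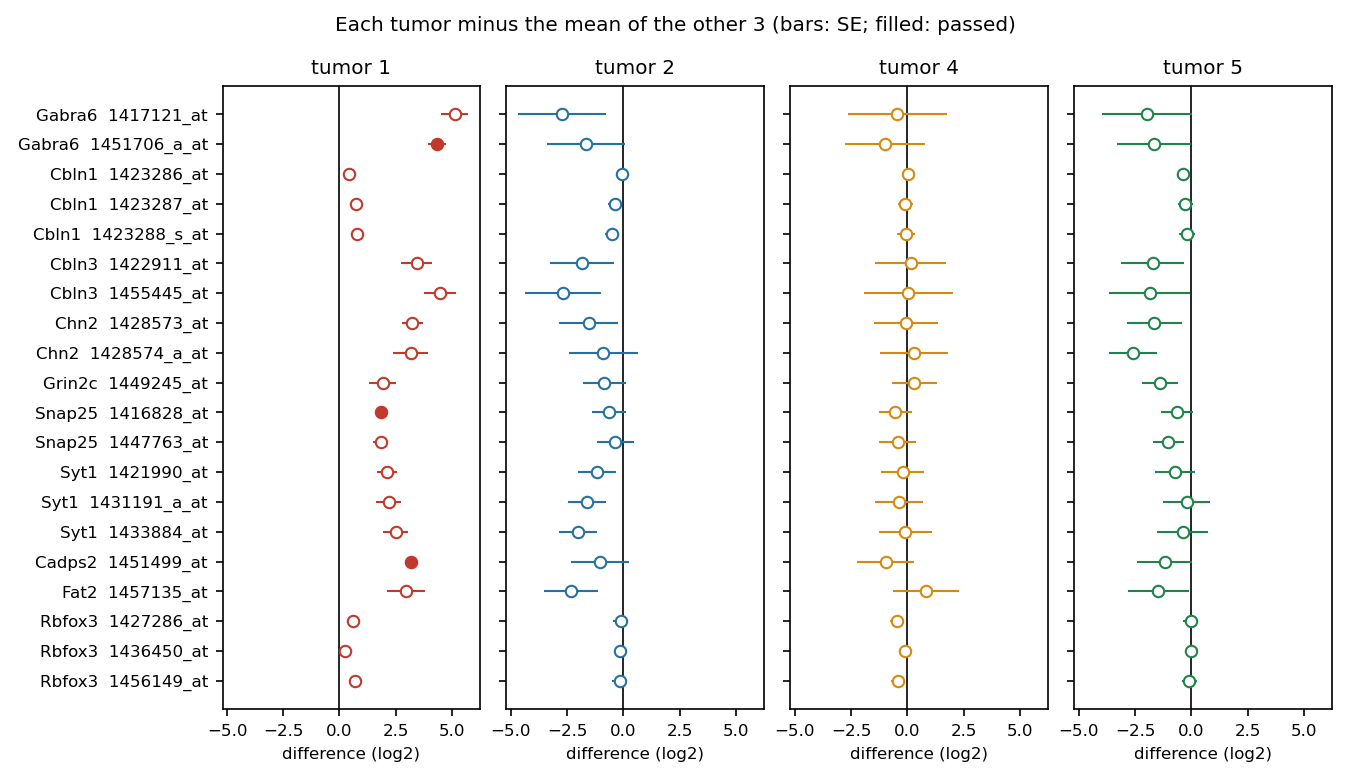
Difference in log2 signal (x axis) of each tumor from the mean of the other 3 for the 20 probe sets (rows), with the limma standard error as a bar and a filled point where the probe set passed. All points lie above 0 in tumor 1 and below 0 in tumors 2 and 5, and the filled points are Gabra6 1451706_a_at, Snap25 1416828_at and Cadps2 in tumor 1.

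Tumors 2, 4 and 5 were next read apart from tumor 1, since it enters the mean that each of them is set against and the spread around it. With tumor 1 in that mean, all 20 probe sets were lower in tumor 2 (median difference -0.96; 45.6% of all probe sets were lower) and in tumor 5 (-0.88; 51.8%), and 14 of 20 in tumor 4 (-0.093; 55%). By 2-fold or more, 10 were lower in tumor 2 (2.22% of all) and 10 in tumor 5 (4.74%). None passed in limma in any of the 3 tumors, over members or over all probe sets. For members far higher in tumor 1, its value raises that mean and widens the spread. Lower readings were then likely and small p-values hardly possible, so these fits say little about tumors 2, 4 and 5. Without tumor 1, the medians were -0.25, 0.47 and -0.20 in tumors 2, 4 and 5.

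Tumor 4 stood second to tumor 1. It was the next highest tumor in 15 of the 20 probe sets, against 28.4% of the probe sets that were highest in tumor 1. The exceptions were the 3 of Rbfox3 and Syt1 1431191_a_at, where tumor 5 came next, and Snap25 1447763_at, where tumor 2 did. Set against tumors 2 and 5 alone, tumor 4 was higher in 17 of 20, where 46.3% of all probe sets were, and by 2-fold or more in 7, where 1.78% of all were. The largest differences were those of Fat2 (2.03, SE 0.54), Cbln3 1455445_at (1.73, SE 0.47), Chn2 1428574_a_at (1.53, SE 0.70), Cbln3 1422911_at (1.45, SE 0.59) and Gabra6 1417121_at (1.42, SE 0.48). None passed in limma, over members or over all probe sets. Most of the signals behind these largest differences lie under the floor. With values raised to it, the differences were 0.93 for Chn2 1428573_at, 0.53 for Cbln3 1455445_at, 0.53 for Syt1 1433884_at, 0.022 for Gabra6 1417121_at and 0 for Fat2. Tumors 2 and 5 differed in no fixed order: tumor 2 was the lowest of the 4 tumors in 10 probe sets and tumor 5 in 8, against 23.1% and 29.2% of all. The 8 include Gabra6 1451706_a_at, where tumors 2 and 5 tied at 2.81 and the tie was counted for tumor 5. Each tumor was measured once, so neighbours in this order could not be tested beyond these fits.

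Further genes of the granule lineage and of the synapse were read in tumor 1 by the probe set with the highest mean of each. Beside the counts of higher genes in this and the next lists, 50.7% of all probe sets were higher in tumor 1. Of 18 measured genes of granule maturation, 16 were higher in tumor 1 and 2 lower, with a median difference of 1.28 and 2 passing. Those were Gabrb2, the beta2 subunit that partners alpha6 in the GABA-A receptor (7.70, 5.18, 5.19 and 4.69 in tumors 1, 2, 4 and 5; at least 5.82-fold, adjusted p = 0.0427), and Calb2, calretinin (8.29, 5.13, 5.82 and 5.59; 6.83-fold, adjusted p = 0.0427). Gabrd, the delta subunit that joins alpha6 in receptors outside the synapse, had the largest difference but read 5.64, 0, 2.54 and 2.61 (at least 1.44-fold, adjusted p = 0.247). The nuclear factor I genes Nfia, Nfib and Nfix, transcription factors of granule neuron maturation, differed by -0.20, -0.0017 and 0.14. Of 14 genes of young, migrating granule neurons, 12 were higher, with a median of 0.75 and none passing. The largest unfloored difference was that of Unc5c, a netrin receptor (1.81, adjusted p = 0.277), with tumors 4 and 5 under the floor. Of 13 genes of progenitors and their Sonic hedgehog drive, 12 were lower and 1 higher, with a median of -0.41 and none passing. Atoh1, the transcription factor of granule progenitors, differed most (-0.83), and the higher gene was Hhip (0.78). Among these lists, the median shift was largest for the 10 mature markers by their brightest probe sets (2.73), and a difference between lists was not tested. Outside the granule lineage, the median was larger for Purkinje and GABAergic neuron markers (3.45). It was smaller for oligodendrocyte markers (2.49) and for the other cell types read below.

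Partners and relatives of the members were read in the same way. Of 14 genes of the release machinery that works with Snap25 and Syt1, 12 were higher in tumor 1, with a median of 0.91 and none passing, and the largest unfloored difference was that of Sv2a, a synaptic vesicle glycoprotein (1.66, adjusted p = 0.132). Tumors 2, 4 and 5 lay under the floor for Sv2a, a bound of at least 2.55-fold, and Syp, synaptophysin, was 2.72-fold higher with all 4 tumors above it (adjusted p = 0.0929). Of 4 measured cerebellin relatives and partners, Nrxn3, a neurexin, rose (7.11, 4.30, 4.41 and 4.10 in tumors 1, 2, 4 and 5; at least 3.98-fold, adjusted p = 0.0427), Nrxn2 differed by 0.61, Cbln4 by -0.34, and Grid1 lay under the floor in all 4 tumors. Of 17 genes from the same families as the members, 13 were higher, with a median of 0.22 and none passing. Gabra2, another GABA-A alpha subunit, read 6.12, 3.49, 3.45 and 2.41 in tumors 1, 2, 4 and 5, with the 3 lower values under the floor (at least 2.00-fold, adjusted p = 0.0946). Rbfox2, a relative of Rbfox3, was above the floor throughout and 2.26-fold higher (adjusted p = 0.0767), whereas Chn1, Snap23, Snap29 and Fat1 lay between -0.16 and 0.11. No gene of these lists passed in tumor 2, 4 or 5.

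**Figure D3:**
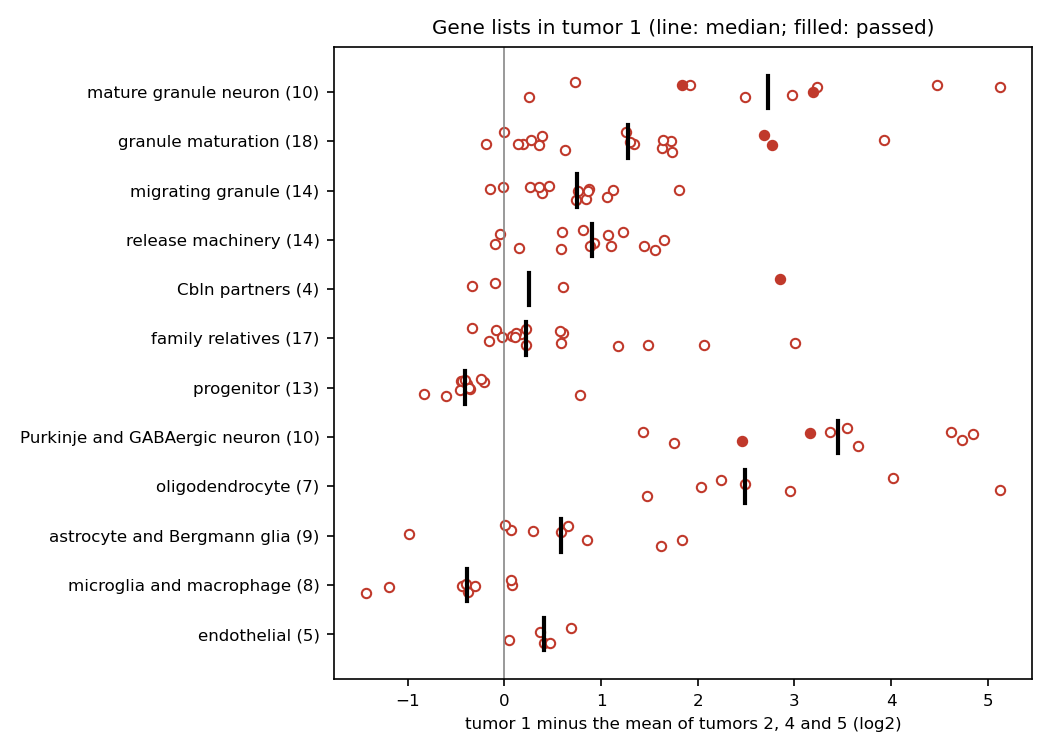
Difference in log2 signal of tumor 1 from the mean of tumors 2, 4 and 5 (x axis) for the genes of each list (rows, number of measured genes in brackets), 1 point per gene by its probe set of the highest mean, filled where it passed, with a black line at the median. The medians run from 3.45 for Purkinje and GABAergic neuron markers and 2.73 for the mature granule markers to -0.41 for progenitor genes.

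Markers of other cells moved with these genes. All 10 measured markers of Purkinje cells and GABAergic neurons were higher in tumor 1, with 2 passing (Car8, a Purkinje cell protein, and Pvalb, parvalbumin). Their linear signals, summed within the list to be read across tumors and not between lists, came to 4157 in tumor 1 and 360.3, 635.4 and 359 in tumors 2, 4 and 5. Gad2 was under the floor in all tumors, and Slc32a1, the vesicular GABA transporter, was listed at 0 in tumors 2 and 5. All 7 measured oligodendrocyte markers were higher in tumor 1 too, with none passing, and summed to 5339 against 777.7, 1615 and 745.9. Mobp, a myelin protein, differed most (at least 11.6-fold, adjusted p = 0.190). Tumor 4 was also the next highest tumor in both of these sums. Astrocyte and Bergmann glia markers were higher in 8 of 9 (sum 5573 against 4153 to 4397), and Gdf10 of Bergmann glia differed most (3.57-fold). The exception was Gfap, which read 6.55, 7.52, 7.69 and 7.40 in tumors 1, 2, 4 and 5, a difference of -0.98. Among those counted as higher, Aqp4 and Slc1a2 differed by only 0.067 and 0.0029. Endothelial markers were higher in 5 of 5 (239.8 against 149.6 to 204.2), but 4 of the 5, with Kdr, lay under the floor throughout, and Eomes of unipolar brush cells read 5.90 against 3.43 to 3.64. Microglia and macrophage markers were lower in 6 of 8 (2704 against 3445 to 4959), and Ptprc, the leukocyte antigen CD45, had the largest unfloored difference (4.83 in tumor 1, under the floor, against 6.22 to 6.32; adjusted p = 0.0726). Choroid plexus markers summed to 5102 in tumor 5 against 145.7 to 590 in the rest. Most of that sum is Ttr, transthyretin (3.12, 2.14, 5.70 and 12.16 in tumors 1, 2, 4 and 5), whereas Clic6 read 9.15, 7.11, 6.29 and 8.73, highest in tumor 1. None of the genes of these 5 lists passed. The part of these cells in the granule neuron result was not tested.

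Finally, the genes with the most similar pattern over the 4 tumors were looked for by the root mean square distance of their centred log2 values from the median centred profile of the 10 members (2.05, -0.97, -0.065 and -0.96 in tumors 1, 2, 4 and 5). The nearest 6 of 10382 genes were Lrrc3b, Scn2a, Pvalb, Tmem59l, Sphkap and C1qtnf4, at distances from 0.0939 to 0.187. Lrrc3b, Tmem59l and C1qtnf4 lay above the floor in tumor 1 alone, and Scn2a in tumors 1 and 4, so much of their likeness is between values under it. Scn2a, a voltage-gated sodium channel of axons, read 7.72, 4.79, 5.44 and 4.86, and Sphkap, an anchoring protein of protein kinase A, read 9.53, 6.90, 7.32 and 6.72. With 4 points per gene, this likeness is a description of these arrays.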

How the data were processed

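Total RNA of 4 tumors was measured on 1 array each. The deposited values are log2 signals of MAS5, per the submitters' processing notes, a method that subtracts a local background and scales each array by itself. The MAS5 version and target signal were not given in the sources used here. Low signals are noisy on this scale. The table held 29304 probe sets, of which 61 controls were left out. Of the other 29243, 24679 had a single gene symbol, 647 several and 3917 none in the platform annotation, and genes were named from single symbols. The deposited log2 values were used with no floor and no filter in limma 3.58.1 (R 4.3.3; lmFit, then eBayes with an intensity trend), each tumor against the other 3, a fit that assumes the lone tumor to vary like the rest. The limma step was tested on simulated data, with differences added only to probe sets over the median of mean signals. Of the 20 member probe sets, 10 lay at or over that median, so added differences in dimmer ones were not covered. All 10 members and every one of their probe sets are named. Genes of the other lists are named where they passed or had the largest difference in tumor 1, as are the 6 genes nearest in pattern to the members. A few more (Nfia, Nfib, Nfix, Nrxn2, Cbln4, Grid1, Chn1, Snap23, Snap29, Fat1, Gad2, Slc32a1, Syp, Rbfox2, Clic6, Gfap, Aqp4, Slc1a2, Hhip) were named after their values were seen. The members and lists were chosen with earlier results of these data known. Promoters came from RefSeq tables of GRCm38.p6. Alternatives were a floor, a floor with a mean filter, quantile normalization, 1 probe set per gene, no trend, no _s_at or _x_at probe sets, and each tumor left out.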

Additional observations from a re-analysis of the deposited data

Results flagged for a closer look

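Among the 20 probe sets, 3 had a tumor far from the rest, judged by the gap to the nearest value over the whole range (Dixon's rule for 4 samples). They were Snap25 1416828_at, at 11.03 in tumor 1 (0.955 of the range), Cadps2 1451499_at, at 9.34 (0.950), and Gabra6 1451706_a_at, at 7.30 (0.885). Chance marks about 5% of groups in this way, and the probe sets share arrays. These are the same 3 probe sets that passed the limma test in tumor 1. Both rules read the same 4 values of each probe set, so this overlap is no separate support.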

How the results depend on the processing

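With values raised to the floor and no mean filter, 7 member probe sets passed in tumor 1 instead of 3, 149 of all probe sets instead of 43, and 6, 10 and 10 of all in tumors 2, 4 and 5 instead of 0. Tumors at the floor have no spread there, which raises these counts. With the floor and the mean filter, 118 of 14622 passed in tumor 1, 4 of them members. With 1 probe set per gene, 187 of 13320 and 5 of 10 members passed, and without the intensity trend 0 and 0 (2500 of all and 17 members with an unadjusted p under 0.05). Leaving out a tumor gave 0 to 0 passing in tumor 1, for all probe sets and for members, and 0 to 4 of all in tumor 5. Quantile normalization kept the 3 member calls. All 20 differences of tumor 1 stayed above 0 in each setting but the floor, where Grin2c and Syt1 1431191_a_at were at 0. The median difference in tumor 4 ranged from -0.59 to 0.47 with a tumor left out and was 0 in tumors 2, 4 and 5 with both the floor and tumor 1 left out, a setting chosen after seeing the data. Of the 60 single differences of tumors 2, 4 and 5, 29 changed sign under at least 1 setting, 23 of them without tumor 1, and none passed under any. No paired analysis was possible because the labels give a single group.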

Other observations

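Syt4, a synaptotagmin of the same family as Syt1, did not follow the members: it read 7.71, 3.68, 6.87 and 8.12 in tumors 1, 2, 4 and 5. Tumor 2 alone lay under the floor, and its difference from the other 3 was -3.89 (SE 0.48, adjusted p = 0.801 in limma). Stmn2, a microtubule regulator of growing axons, was also lowest in tumor 2, at 9.22 against 10.78, 10.36 and 10.23 in tumors 1, 4 and 5 (difference -1.24, SE 0.24, adjusted p = 0.801). Neither passed, and both were named after their values were seen.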
